A study of Mus musculus with 8 samples.

Results

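ATAC-seq libraries of mouse melanoma lines whose titles carry a low number after the letter p were compared with those of lines with a high number. The low side was line 112 (p18, STAT3 knockout) and line 119 (p14, wild type), and the high side was line 113 (p44, STAT3 knockout) and line 73 (p68, wild type). Sides were read from the titles alone, and they took in all 8 libraries of the series, 4 a side, from 2 of the 4 lines each with 2 replicate libraries. What p counts is not stated in the labels, and it is given here only as the labels print it. Per the labels, each line was a pool of cells grown out of the lymph nodes of mice with skin melanoma and was of genotype Stat3fl (called wild type) or Stat3∆ (called knockout), although another label calls each line a clone. The driver of the deletion is not named, and both sides hold 1 deleted and 1 floxed line. The p number comes with the line, so an effect of p and any other difference between these particular lines cannot be told apart. Replicates are labelled biological, but separate cultures are not described, so tests between replicate libraries measure a spread that may be technical.

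ATAC-seq uses the Tn5 transposase to cut and tag DNA that is not wrapped up in nucleosomes, so a region's read count reports how open it is. Start sites of widely used genes, most of them rich in CpG dinucleotides, are open in nearly every cell type, whereas enhancers far from genes differ between cell types and cell states. Cuts also fall at random in closed DNA, and a library with more of this background has proportionally fewer reads at its strongest sites. A pair of cell groups that differ in background can therefore differ at a great many start sites at once, which makes signal to background a measurement to set beside every count below.

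The start sites that follow are among those with the largest differences between the sides. They are shown 5′ to 3′, 250 bases before to 50 after the annotated start, from RefSeq on GRCm38.p6, with each CpG in capitals. Svip (chr7:52005665-52005964, minus strand) and Klrb1a (chr6:128622885-128623184, minus strand) were more open in the low lines, and Zcchc3 (chr2:152414995-152415294, minus strand) and Gata2 (chr6:88193641-88193940, plus strand) were less open there. The stretches shown hold 24 CpGs at Svip, 2 at Klrb1a, 12 at Zcchc3 and 32 at Gata2. Svip and Gata2 each have another annotated start that is not shown, with 15 and 29 CpGs. These few starts do not stand for all, whose composition by direction is given further below.
Svip: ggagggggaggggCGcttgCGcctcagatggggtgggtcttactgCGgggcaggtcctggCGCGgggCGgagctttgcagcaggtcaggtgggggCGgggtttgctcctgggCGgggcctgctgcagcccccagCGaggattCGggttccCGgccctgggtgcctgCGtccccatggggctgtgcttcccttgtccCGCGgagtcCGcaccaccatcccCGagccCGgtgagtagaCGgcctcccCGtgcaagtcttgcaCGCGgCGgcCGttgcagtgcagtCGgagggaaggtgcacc
Klrb1a: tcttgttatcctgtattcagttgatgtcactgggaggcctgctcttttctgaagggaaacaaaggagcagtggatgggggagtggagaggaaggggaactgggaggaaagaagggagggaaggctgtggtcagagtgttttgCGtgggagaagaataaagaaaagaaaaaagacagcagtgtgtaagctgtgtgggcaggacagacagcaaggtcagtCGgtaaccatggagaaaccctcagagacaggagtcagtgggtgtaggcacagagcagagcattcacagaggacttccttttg
Zcchc3: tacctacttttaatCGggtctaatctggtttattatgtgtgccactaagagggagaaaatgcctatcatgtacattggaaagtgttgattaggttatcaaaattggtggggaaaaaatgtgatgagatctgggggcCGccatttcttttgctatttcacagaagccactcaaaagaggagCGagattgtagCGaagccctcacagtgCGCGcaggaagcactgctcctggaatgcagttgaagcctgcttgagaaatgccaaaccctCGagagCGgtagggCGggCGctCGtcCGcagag
Gata2: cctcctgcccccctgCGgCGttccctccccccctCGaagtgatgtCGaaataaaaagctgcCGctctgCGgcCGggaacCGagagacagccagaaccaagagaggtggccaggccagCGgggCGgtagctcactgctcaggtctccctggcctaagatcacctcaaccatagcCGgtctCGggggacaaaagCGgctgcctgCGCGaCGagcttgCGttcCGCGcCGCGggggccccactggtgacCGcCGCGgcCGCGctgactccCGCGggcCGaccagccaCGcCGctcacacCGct

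Many gene starts stood apart between the sides, and a few did so by a large factor. Svip, whose product binds the ATPase VCP and inhibits the disposal of misfolded proteins, and Klrb1a, a lectin-like receptor of natural killer cells, were several-fold more open in both low lines. Zcchc3, a nucleic acid binding protein of innate immune sensing, and Jph1, a junctophilin that couples membranes in muscle, were several-fold less open. A region was called separated where line 112 against 113, 112 against 73, 119 against 113 and 119 against 73 all passed an adjusted p of 0.05 in edgeR with the same sign; these 4 pairs share lines and are not independent. Of 140329 regions tested, 1575 (1.12%) were separated with more counts in the low lines and 5393 (3.84%) with fewer. The total of 6968 became 3338 without line 113 replicate 1, 3033 and 3181 without line 119 replicate 1 or 2, and 4563 without line 73 replicate 1. The genes described next were named by a rule on size within these separated regions, so their direction is a consequence of the rule and their levels are descriptions.

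The Svip region (chromosome 7, 52005538 to 52006461, over the start of the gene) held 43.1 and 31.1 CPM in the libraries of line 112 and 37.2 and 37.7 CPM in line 119. In line 113 it held 4.08 and 5.81 CPM, and in line 73 it held 4.35 and 3.89 CPM. CPM are counts per 1000000 on library sizes scaled by the trimmed mean of M values (TMM). All 4 low libraries thus lay above all 4 high libraries, and the lines of a side differed little from each other. The means were 37.3 ± 0.26 CPM on the low side and 4.53 ± 0.58 CPM on the high side (SD, n = 2 lines). The authors' peak lists had a peak there in 4 of 4 low libraries and in 0 of 4 high libraries. The log2 difference, low minus high, was 2.92 between lines 112 and 113 (edgeR adjusted p = 1.04e-12) and 3.17 between lines 119 and 73 (adjusted p = 5.05e-15), and these did not pass the test of a difference (interaction -0.25, adjusted p = 0.666).

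The Klrb1a region (chromosome 6, 128622671 to 128623343, over the start site) held 58.2 and 23.1 CPM in line 112, 34.3 and 40.5 CPM in line 119, 11.6 and 9.19 CPM in line 113, and 1.54 and 3.06 CPM in line 73. The sides did not overlap, but the replicates of line 112 were far apart. The difference was 1.99 in the knockout lines and 4.02 in the wild-type lines on the log2 scale, an unequal pair by the interaction test (-2.03, edgeR adjusted p = 0.000596). Klrb1a lies among related receptor genes, so how the counts were divided between near copies is uncertain. Pcdh17, a protocadherin of neuronal adhesion, held 28.2 and 20 CPM in line 112, 43.9 and 41.2 CPM in line 119, 8.61 and 8.47 CPM in line 113, and 3.33 and 3.06 CPM in line 73 (chromosome 14, 84444183 to 84446168, inside the gene). Its sides did not overlap, and its log2 difference was again larger in the wild-type lines, at 3.73 against 1.51.

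The other 5 gene ends with the largest rises were Olfr748, Dok5, Cts3, Mstn and Gldn. Dok5, an adaptor below receptor tyrosine kinases, held 10.2 to 30.0 CPM over the low libraries and 0.278 to 7.74 CPM over the high ones. Gldn, the gliomedin that Schwann cells use to build nodes on axons, held 4.42 and 8.62 CPM in line 112, 20.6 and 18.2 CPM in line 119 and 0.906 to 2.90 CPM in the high libraries. Mstn, the myostatin that restrains muscle growth, reached 5.65 ± 4.00 CPM on the low side against 0.752 ± 0.11 CPM (SD, n = 2 lines). Olfr748, an olfactory receptor, and Cts3, a cathepsin, had 7 and 14 counts in all over the high libraries, against 205 and 207 over the low ones, and both belong to families of near copies. In these 5 genes the low side was high mainly through line 119, whose libraries were above those of line 112 in each gene. Among the 8 genes, the interaction passed the test at Dok5, Klrb1a, Gldn and Pcdh17, each with the larger difference in the wild-type lines.

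Among the falls, the Zcchc3 region (chromosome 2, 152414596 to 152415227, over the start site) held 1.86 and 7.08 CPM in line 112, 3.10 and 2.36 CPM in line 119, 34.0 and 30.0 CPM in line 113, and 23.0 and 25.0 CPM in line 73. The log2 difference was -2.93 in the knockout lines (edgeR adjusted p = 1.96e-10) and -3.10 in the wild-type lines (adjusted p = 9.05e-13). The sides did not overlap, and the differences did not pass the interaction test (0.17, adjusted p = 0.803). Jph1 (chromosome 1, 17097511 to 17098181, at an end of the gene) held 6.52 and 11.1 CPM in line 112, 4.27 and 4.39 CPM in line 119, 46.9 and 40.2 CPM in line 113, and 37.9 and 41.9 CPM in line 73. Here too every low library lay below every high library. All 8 libraries had a Jph1 peak in the authors' lists, whereas at Zcchc3 the low libraries had 1 and the high libraries 4.

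Gata2, a transcription factor of blood progenitors, held 7.21 and 8 CPM in line 112, 0.905 and 1.86 CPM in line 119, 15.2 and 16.4 CPM in line 113, and 25.9 and 21.1 CPM in line 73 (chromosome 6, 88193377 to 88194179). Rftn1, which encodes the lipid raft protein raftlin, held 3.03 and 5.23 CPM in line 112, 0.646 and 0.844 CPM in line 119, 11.1 and 8.95 CPM in line 113, and 27.9 and 29.2 CPM in line 73 (chromosome 17, 50190112 to 50190795). In both genes line 119 was lowest and line 73 highest, and the interaction passed the test (3.06 at Gata2, edgeR adjusted p = 3.53e-07, and 3.91 at Rftn1, adjusted p = 9.81e-08). Cyb5a, the electron carrier cytochrome b5, showed the same order, with 6.10 ± 4.98 CPM on the low side and 50.1 ± 22.1 CPM on the high side (SD, n = 2 lines). Gstm2, a glutathione transferase, had 33 counts over the low libraries and 229 over the high ones. Ect2, the exchange factor that starts cytokinesis, had 33 and 195, and Cbln2, a synapse organizer, had 30 and 108. Of the 8 fallen genes, 6 had an unequal pair of differences by the interaction test, and Zcchc3 and Ect2 did not pass it.

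**Figure D1:**
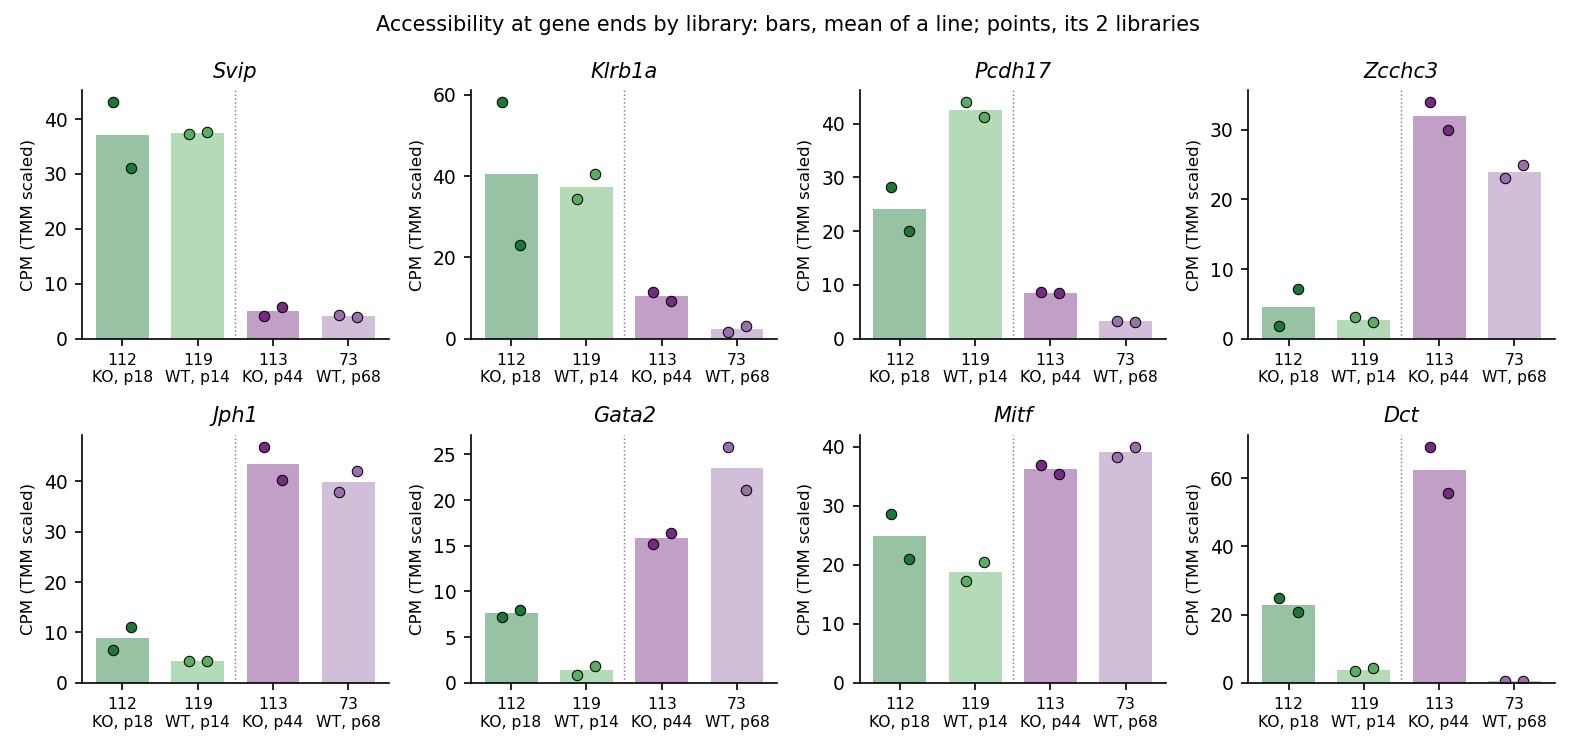
Accessibility in CPM (vertical axes, each from 0) at 8 gene ends in the 4 lines; bars are the mean of a line, points its 2 libraries, and a dotted line divides the low from the high p lines. Svip, Klrb1a and Pcdh17 are higher in all 4 low libraries, Zcchc3, Jph1, Gata2 and Mitf are lower in them, and the Dct region runs in opposite directions in the knockout and wild-type lines.

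The share of counts at strong regions, taken here as the measure of signal to background, differed between the sides. It is a share of the counts in tested regions, and reads outside them do not enter it. It therefore cannot tell background apart from a wider spread of open regions. The strongest 10% of regions, ranked by mean CPM over lines, took 42.1% and 37.3% of the counts for the libraries of line 112 and 35.5% and 36.1% for line 119. They took 47.6% of both libraries of line 113 and 45.2% and 45.3% for line 73. Both low lines thus lay below both high lines, with means of 37.7% and 46.4%. With 2 lines a side an exact permutation test cannot go below p = 0.3333, which is the value found. Regions within 1 kb of an annotated start site took 29.1% of the counts in line 112 and 24.4% in line 119, against 34.3% and 34.5% in lines 113 and 73. Mean CPM at gene ends was 3.28 and 2.57 times that of other regions in lines 112 and 119, and 4.12 and 4.20 times in lines 113 and 73. The median fold enrichment of the authors' peaks did not divide the sides. It was 5.64 and 5.06 in line 112, 6.44 and 6.25 in line 119 and 5.93 to 6.49 in the high libraries.

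Other measures put the low lines at opposite extremes. The authors' lists held 38743 and 20387 peaks for line 112 and 94906 and 85498 for line 119, with 51700 to 56497 for the high libraries between them. Regions without a peak in any library took 4.17% and 5.53% of the counts in line 112 and 1.93% and 2.03% in line 119, and 2.41% to 3.39% in the high libraries. Total counts were 2697546 to 3993473 in line 112, 5736939 to 7464336 in line 119 and 3945177 to 5029386 in the high lines, so depth did not follow the sides either. Line 112 had a low share of counts at the strongest regions, the fewest peaks and the largest share in regions without a peak. Line 119 had a low share at the strongest regions, the most peaks and the smallest share in regions without a peak. The lists of all libraries together define the regions without a peak. The libraries of line 119 had peaks at 61.1% and 54.8% of regions, and those of line 112 at 24.5% and 12.6%. The definition thus took out more of line 119's own peak regions, so this share cannot rank the lines by background. The part of peak number and of signal in regions without a peak in the lower share was not tested.

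**Figure D2:**
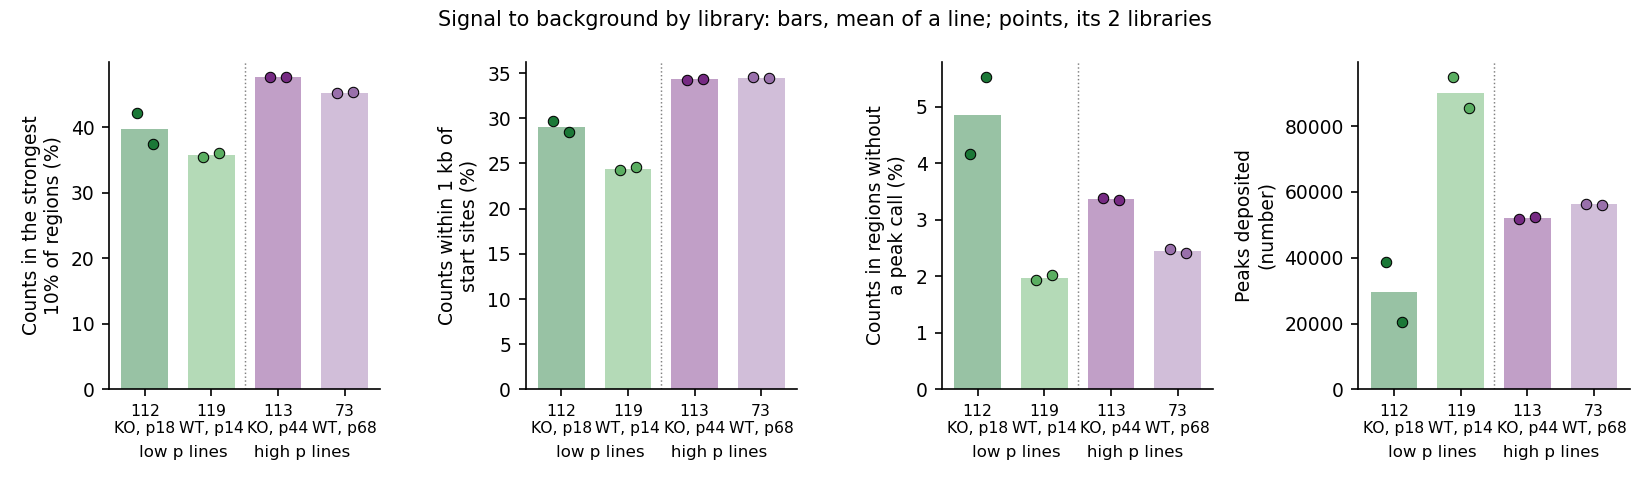
Share of counts in the strongest 10% of regions, share within 1 kb of start sites, share in regions without a peak call (all in %) and number of deposited peaks, by line; bars are line means and points the 2 libraries. In the left pair of panels both low p lines lie below both high p lines, and in the right pair lines 112 and 119 lie on either side of the high p lines.

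With the line as the unit, 0 of 140329 regions (0.0%) passed an adjusted p of 0.05 in edgeR with genotype as a term, and no adjusted p was below 0.395. Without adjustment 6802 regions (4.85%) had p under 0.05, 2394 higher and 4408 lower in the low lines. DESeq2 on the same line sums also called 0, with 4012 regions at an unadjusted p of 0.05, of which 3295 were higher and 717 lower, the opposite balance to edgeR with TMM. The fit has 1 residual degree of freedom. In it Svip had a log2 difference of 3.08 ± 0.51 (SE; edgeR adjusted p = 0.467), Klrb1a 3.02 ± 0.60 (adjusted p = 0.467), Zcchc3 -3.01 ± 0.71 (adjusted p = 0.543) and Jph1 -2.76 ± 0.47 (adjusted p = 0.467). None of these therefore passed as a difference between the sides, in spite of passing between every pair of lines.

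Between single lines the differences were far more numerous, and most of the calls were not shared in direction by both genotypes. Line 112 differed from line 113 at 33422 regions (23.8%), 11566 higher and 21856 lower, and line 119 from line 73 at 79859 (56.9%), 38552 higher and 41307 lower (edgeR, adjusted p under 0.05, replicate libraries as error). These comparisons share no library. They called 3202 regions (2.28%) higher and 7496 (5.34%) lower in the low line of both genotypes, and 10799 regions (7.7%) in opposite directions. The interaction, which tests whether the low minus high difference is unequal in the 2 genotypes, passed at 55784 regions (39.8%). Across all tested regions the Pearson correlation of the 2 differences was -0.115 and the Spearman correlation -0.095, as a description over regions that share their libraries' depth and background. Opposite changes were thus about as many as the 10698 shared ones. Without line 113 replicate 1, line 112 against 113 gave 17228 calls, with 5123 shared and 6238 opposite, and without line 119 replicate 1 or 2 the shared changes numbered 5264 and 5531.

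**Figure D3:**
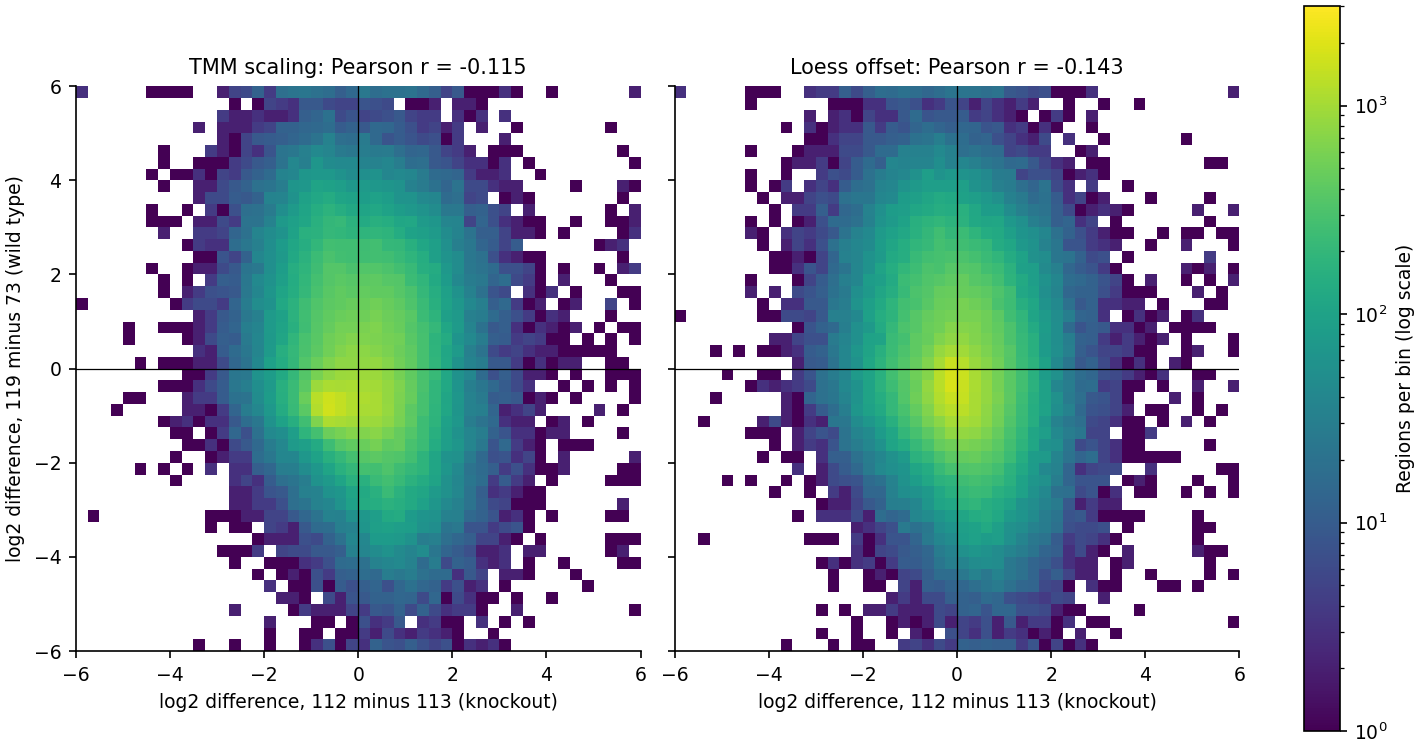
Log2 difference between the low and the high p line in the knockout lines (horizontal) and in the wild-type lines (vertical) for 140329 regions, as the number of regions per bin on a log colour scale, with TMM scaling (left) and with a loess offset by abundance (right). Values past 6 in size are drawn at the edge. The dense patch in the lower left quadrant under TMM lies close to 0 under the loess offset, and the correlation is -0.115 and -0.143.

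The shared falls were concentrated in strong regions at start sites. Of 10 equal groups of regions ordered by mean CPM, the strongest (16.8 to 155 CPM) had a median log2 difference of -0.62 in the knockout lines and -0.68 in the wild-type lines. The weakest group had medians of 0.37 and 0.29. Of the 5393 separated falls, 4610 lay in the strongest group, where 32.9% of regions were separated and lower and 0.249% separated and higher. Separated rises were spread over all 10 groups, with 35 to 230 in each. Regions within 1 kb of a start site were 10.1% of the regions on chromosomes with a start-site table but held 70.5% of the separated falls (3679) and 3.78% of the separated rises (58). Regions over 50 kb from any start site were 45.6% of regions and held 57.6% of the separated rises.

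Ribosomal protein genes, which every growing cell transcribes, give a view of strong start sites that mark no cell type. Of 82 regions within 1 kb of their ends, 35 fell and 0 rose in both genotypes (42.7% fell, against 5.34% of all regions and 41.6% of the strongest 10%), and 25 were separated and lower (30.5%, against 3.84% and 32.9%). Their median log2 difference was -0.64 in the knockout lines and -0.71 in the wild-type lines, close to that of the strongest 10% of all regions. Rps19, of the small subunit, held 68.2 and 49.9 CPM in line 112, 54.4 and 57.9 CPM in line 119, 104 and 102 CPM in line 113, and 79.4 and 72.8 CPM in line 73. Its low libraries all lay below its high ones, at -0.59 on the log2 scale, but it was not separated in all 4 pairs, and under the loess offset described next it stood at 0.30. Rpl3, of the large subunit, held 16.7 to 23.5 CPM over the low libraries, 41.5 and 27.8 CPM in line 113 and 78.6 and 69.4 CPM in line 73.

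**Figure D4:**
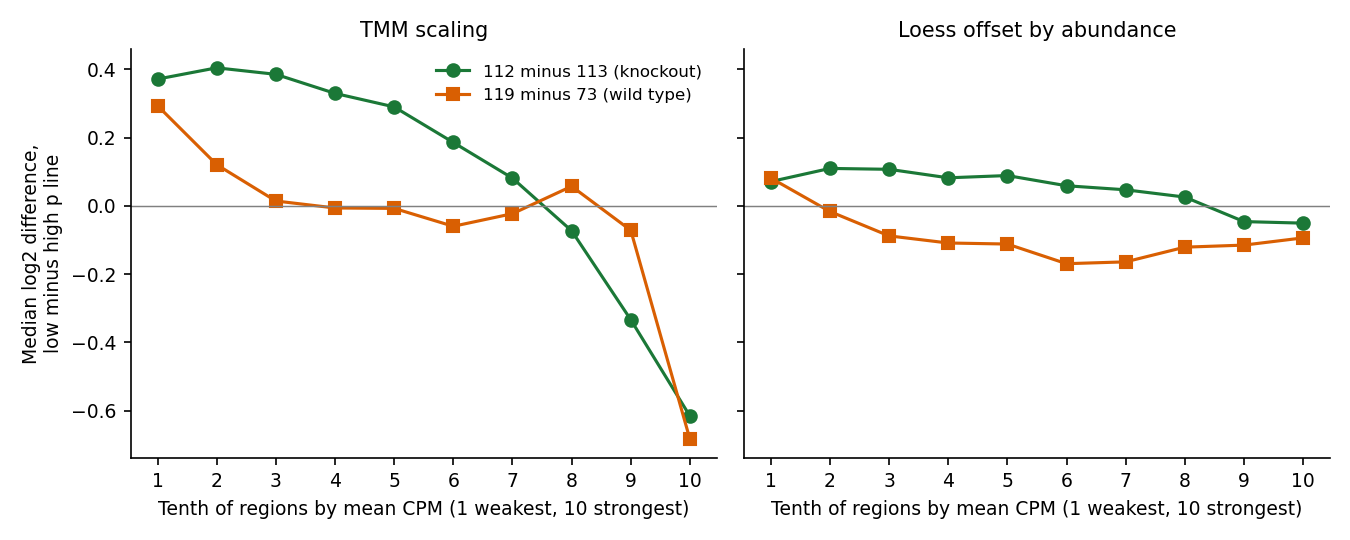
Median log2 difference, low minus high p line, in 10 equal groups of regions ordered by mean CPM, for the knockout and the wild-type lines, with TMM scaling (left) and with the loess offset (right). Under TMM both curves end near -0.6 in the strongest group, at -0.62 and -0.68, and under the loess offset every point lies within 0.2 of 0.

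The counts and their direction changed with the scaling. A loess offset, which removes each library's trend against mean abundance and with it any part of signal to background that follows abundance, left 1232 separated rises (0.878%) and 753 separated falls (0.537%). Of these, 927 rises and 651 falls were also separated under TMM. The total of 1985 became 1243 without line 112 replicate 1, 960 without line 113 replicate 1, and 1208 and 1223 without line 119 replicate 1 or 2. Regions changed alike in both genotypes numbered 2558 higher (1.82%) and 1834 lower (1.31%), and 9627 (6.86%) went in opposite directions. Under TMM 22.6% of separated regions were rises, and under the loess offset 62.1% were. The TMM share was 40.0% without line 119 replicate 1 (1213 rises, 1820 falls), 39.9% without its replicate 2 (1269 and 1912) and 64.1% with a mean count of at least 50 (681 and 382). The median log2 difference of all regions with lines as units was 0.01 under TMM. Scaling on the strongest 10% of regions, where that median was 0.61, gave 7655 rises and 150 falls. Scaling on regions without a peak, with a median of 0.15, gave 912 and 329. Total counts alone, with a median of 0.25, gave 3552 rises and 1899 falls. DESeq2's size factors (1585 and 4416) and the 10 Mb window offset alone (1172 and 4270) gave more falls, as TMM did. Which side had more separated regions therefore depended on the scaling, and ribosomal protein regions separated under TMM numbered 0 under the loess offset, where their medians were -0.17 and -0.35.

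**Figure D5:**
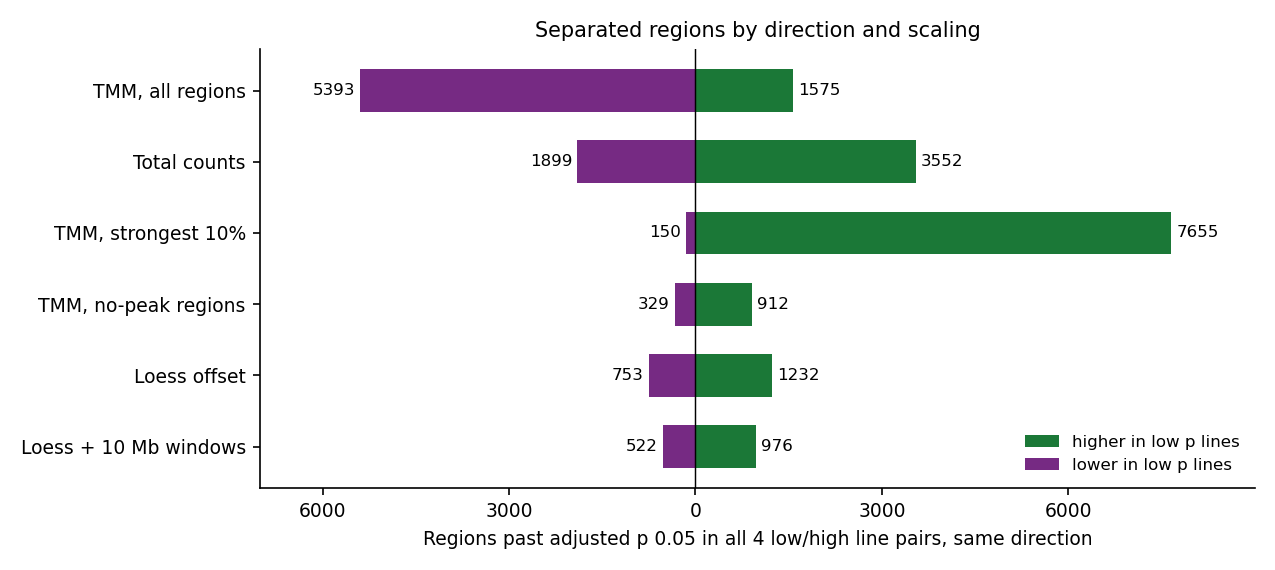
Number of regions separated in all 4 line pairs under 6 scalings; bars to the right are higher and bars to the left lower in the low p lines, with the counts printed at their ends. Of the 6 scalings drawn, falls outnumber rises only under TMM on all regions, at 5393 against 1575.

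Svip and Klrb1a kept their differences under the loess offset, at 3.28 ± 0.58 and 3.26 ± 0.56 on the log2 scale (SE), and passed there with lines as units (edgeR adjusted p = 0.030 for both). They were 2 of 8 regions (0.0057%) that did, all with positive sign. The other 6, named after their values were seen, lay at or near Bhlhe40, Cd9, Plekha5, 1700034J05Rik and Sh2d6 on chromosome 6 and in Cic on chromosome 7. These were strong regions whose sides overlapped in CPM: Cd9, a tetraspanin, held 131 and 91.1 CPM in line 112, 54.3 and 47.6 CPM in line 119, 44.6 and 45.7 CPM in line 113, and 41.7 and 50.3 CPM in line 73. Bhlhe40, a clock-linked repressor, went from -0.53 under TMM to 0.61 under the loess offset, and Cic, a repressor in receptor tyrosine kinase signalling, from -0.15 to 0.85, so their direction is that of the scaling chosen. With each of the 8 libraries left out in turn under this offset, Svip passed in 3 runs and Klrb1a in 2, and without line 112 replicate 1, or without line 73 replicate 1, 0 regions passed. With an added offset over 10 Mb windows, 0 regions passed as well, and Svip and Klrb1a remained separated, at 2.87 and 2.89.

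Zcchc3 and Jph1 also moved little with the scaling, at -2.96 and -2.47 under the loess offset, where both were separated and neither passed with lines as units (edgeR adjusted p = 1.00 and 0.171). Of the 8 risen gene ends, Dok5, Svip, Klrb1a, Gldn and Pcdh17 stayed separated. Olfr748, Cts3 and Mstn did not, although their log2 differences of 3.42, 2.79 and 2.48 were close to the 3.66, 3 and 2.71 under TMM. All 8 fallen gene ends stayed separated. None of the 16 changed sign in any alternative run, which the rule on size made likely in advance.

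Away from gene ends, the smallest p values among separated rises were at regions near Sv2c, Cdh9, Tusc1 and Ptprt. The region inside Sv2c, a synaptic vesicle protein, had 35 and 14 counts in line 112, 169 and 113 in line 119 and 0 in each high library (chromosome 13, 96015487 to 96016109). Taking 3 counts as the limit for the high libraries together, it was at least 71.4-fold higher on the low side, and the authors' lists had a peak there in 3 of 4 low and 0 of 4 high libraries. The regions named for Cdh9 (65 counts against 1), Tusc1 (42 against 1) and Ptprt (38 against 1) rest on few counts. Under the loess offset only the Sv2c region of these 4 stayed separated. The log2 differences at Cdh9, Tusc1 and Ptprt were 5.20, 4.67 and 4.54 under TMM and 4.64, 4.05 and 3.92 under the loess offset. Among separated falls, the smallest p values were at Ptch1, Prdm10, Mon2 and Ppara, all strong regions. Those in Ptch1 and Prdm10 lay over annotated start sites inside these genes, though over 1 kb from the gene ends. The region in Ptch1, the Hedgehog receptor, held 104 and 85.6 CPM in line 112, 93.8 and 96.4 CPM in line 119, 151 and 152 CPM in line 113, and 162 and 168 CPM in line 73. Its sides did not overlap, at -0.71 ± 0.09 under TMM (SE), yet it stood at 0.36 under the loess offset, and Prdm10 went from -0.85 to 0.09 likewise. Mon2, a trafficking protein, was at -1.29 and stayed separated under the loess offset at -0.51, and Ppara, the fatty acid receptor, went from -1.02 to -0.09.

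Separated rises clustered on chromosome 6, which holds 6.40% of the regions but 25.7% of the rises (404) and 1.34% of the falls. The median log2 difference over the chromosome was 0.90 between lines 112 and 113 and -0.35 between lines 119 and 73. By 10 Mb windows line 112 was also above line 73, with a median of 0.17 to 1.33, whereas line 119 minus 113 lay at -0.62 to 0.48, so the broad rise was that of line 112. The median of line 112 minus 113 was above 0.7 in 12 of 15 and 0.19 to 0.34 in the 3 from 80 to 110 Mb. With the 10 Mb window offset added to the loess offset, the chromosome held 8.71% of separated rises. Falls were gathered too: under the loess offset chromosome 5 (5.72% of regions) held 16.7% of separated falls and chromosome 3 (5.83%) held 14.2%, and with windows added they held 5.56% and 8.62%. The median of line 112 minus 113 was -1.29 to -0.80 over the first 60 Mb of chromosome 3 and -0.81 to -0.54 from 20 to 60 Mb of chromosome 5. The part of DNA copy number in these shifts was not tested.

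The genes with the most separated rises were Nrxn3 on chromosome 12 and Cntnap2, Grin2b, Plxna4, Kcna1 and Grm8 on chromosome 6, all known from neurons. The ranking is by number of regions, so it favours genes that hold many. Over all regions 1.12% were separated and higher and 3.84% separated and lower. At Nrxn3, a presynaptic adhesion molecule, 14 of 53 regions were separated and higher, 10 under the loess offset and 9 with the window offset added. Median CPM over its regions was 3.25 in line 112 and 3.19 in line 119, against 0.945 and 1.06 in lines 113 and 73. Cntnap2, of the same adhesion family, had 11 of 65, Grin2b, a glutamate receptor subunit, 9 of 19, and Kcna1, a potassium channel, 7 of 8. With the window offset added, Cntnap2 had 1 and Grin2b, Kcna1 and Grm8 had 0. Plxna4, a semaphorin receptor, had 8 of 26 and then 2. The genes with the most separated falls had fewer: Wls, which carries Wnt proteins to the cell surface, had 5 of 17, 6 under the loess offset and 4 with windows added, and Chpf2, Gmds, Kmt2e, Lin54 and Phlpp1 had 4 each. With loess and window offsets Chpf2 and Lin54 had 0, Gmds and Kmt2e 1 and Phlpp1 2.

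The melanocyte genes showed few changes shared by both genotypes. MITF is the lineage's master transcription factor, SOX10 acts above it, and TYR, TYRP1 and DCT make melanin on the scaffold protein PMEL. Of 233 regions of 20 pigmentation genes, 1 rose and 6 fell in both genotypes (0.429% and 2.58%, against 2.28% and 5.34% of all regions). Opposite changes numbered 27 (11.6%, against 7.7%), and 4 regions were separated, all falls (1.72%, against 3.84%). Under the loess offset 2 falls were separated, both at Dct (0.858%, against 0.537% of all regions). The median log2 difference was -0.30 in the knockout lines and 0.12 in the wild-type lines, against 0.08 and -0.10 over all regions. The Mitf start held 28.6 and 20.9 CPM in line 112, 17.2 and 20.4 CPM in line 119, 36.9 and 35.3 CPM in line 113, and 38.2 and 40.0 CPM in line 73. The sides did not overlap, and the difference was -0.77 ± 0.35 with lines as units (SE; edgeR adjusted p = 0.998) and -0.24 under the loess offset. The Pmel region, shared with the start of Rab5b, went from -0.91 to -0.16 in the same way.

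The strongest region at an end of Dct ran in opposite directions, as did 5 of the 11 regions of the gene, while 2 were separated and lower. It held 24.9 and 20.6 CPM in line 112 and 69.3 and 55.6 CPM in line 113, but 3.36 and 4.22 CPM in line 119 and 0.512 and 0.556 CPM in line 73. The low line was thus below the high line among the knockouts (-1.45, edgeR adjusted p = 1.42e-07) and above it among the wild types (2.75, adjusted p = 5.95e-05; interaction -4.20, adjusted p = 3.21e-08). Sox10 was similar in lines 112, 119 and 113, at 16 to 28.3 CPM, and low in line 73, at 2.56 and 3.61 CPM. Tyr held 14.2 to 22.4 CPM in the knockout libraries and 1.67 to 4.91 CPM in the wild-type ones. Tyrp1 was highest in line 113, at 18.8 and 12.1 CPM, and Mlana held 8.95 to 11.6 CPM in the knockout libraries and 0 to 0.844 CPM in the wild-type ones. At Dct, Sox10, Tyr, Tyrp1 and Mlana the low and high libraries overlapped. Mreg, which transports melanosomes, held 21.6 to 38.6 CPM over the low libraries and 38.7 to 55.6 CPM over the high ones, and passed the test in 3 of the 4 line pairs, but not between lines 112 and 113 (-0.31, edgeR adjusted p = 0.223; interaction 1.01, adjusted p = 0.00124).

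Genes of the neural crest and of dedifferentiated melanoma had more separated rises than falls. Of 174 regions of 18 genes, 14 rose and 3 fell in both genotypes (8.05% and 1.72%, against 2.28% and 5.34% of all regions). Separated were 7 higher (4.02%, against 1.12% of all regions) and 1 lower (0.575%, against 3.84%). Under the loess offset 5 were higher (2.87%, against 0.878% of all regions) and 0 lower (against 0.537%). The rises under TMM included Nt5e and Zeb1 (2 each) and Loxl2 and Ngfr (1 each). They encode an ectonucleotidase, a repressor of epithelial genes, a collagen cross-linking enzyme and the nerve growth factor receptor. The median log2 difference was 0.63 in the knockout lines and 0.09 in the wild-type lines. The Jun region, named for its small p, was lower in the low lines. It held 52.3 to 70.6 CPM over the low libraries and 93.2 to 119 CPM over the high ones, at -0.71 under TMM and 0.22 under the loess offset.

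In the STAT3 pathway, where gp130 family receptors signal through Janus kinases to STAT3 and SOCS proteins switch them off, 3 of 174 regions rose and 12 fell in both genotypes, and 2 were separated and higher and 8 lower (1 and 1 under the loess offset). The separated shares of 1.15% and 4.60% are near the 1.12% and 3.84% of all regions. The shares changed in both genotypes were 1.72% and 6.90%, against 2.28% and 5.34% of all regions. Under the loess offset the separated shares were 0.575% higher and 0.575% lower, against 0.878% and 0.537% of all regions. Lifr, the receptor chain for leukaemia inhibitory factor, held 3.72 and 8.62 CPM in line 112, 14 and 13.7 CPM in line 119, 35.8 and 39.4 CPM in line 113, and 34.1 and 28.6 CPM in line 73 at a start site. Its sides did not overlap, it was separated under TMM and under the loess offset (-1.90 and -1.57), and it fell more in the knockout lines (-2.67 against -1.18; interaction -1.48, edgeR adjusted p = 0.000498). Socs1 held 65.9 to 87.6 CPM on the low side and 106 to 112 CPM on the high side, at -0.46 under TMM and 0.51 under the loess offset. The Stat3 start held 30.5 and 25.9 CPM in line 112, 18.2 and 18.2 CPM in line 119, 38.5 and 37.5 CPM in line 113, and 38.9 and 28.1 CPM in line 73, so knockout and wild-type libraries overlapped. The labels do not place the deleted part, and signal at the start site is no check of the knockout.

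Of 21 regions at the C/EBP genes, 0 rose and 3 fell in both genotypes (14.3%, against 5.34% of all regions) and 2 were separated and lower (9.52%, against 3.84%). Cebpb, a factor of inflammatory gene control, held 26.1 to 37.9 CPM over the low libraries and 46.7 to 54.8 CPM over the high ones, at -0.72 ± 0.25 (SE) and -0.07 under the loess offset. The region at an end of Cebpz, shared with the start of Ndufaf7, held 12.6 to 20.5 and 32.4 to 39.0 CPM and stayed separated under the loess offset at -0.52.

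Cell cycle genes had more shared falls than rises under TMM. Of 172 regions of 20 genes, 1 rose and 20 fell in both genotypes (11.6%, against 5.34% of all regions). Separated were 1 higher and 14 lower (8.14%, against 3.84%). Under the loess offset 1 was higher (0.581%, against 0.878% of all regions) and 0 lower (against 0.537%). Cdk4, the kinase that opens the G1 checkpoint with D cyclins, held 43.5 and 36.6 CPM in line 112, 35.0 and 36.0 CPM in line 119, 78.8 and 69.7 CPM in line 113, and 74.5 and 72.8 CPM in line 73. Its sides did not overlap, at -0.94 ± 0.19 (SE; edgeR adjusted p = 0.467), and under the loess offset it was at -0.17. Hmga2, an architectural chromatin protein, held 42.8 to 52.4 CPM on the low side and 67.0 to 91.7 CPM on the high side, at -0.82 and then 0.01. Cdkn2a, which encodes the p16 and p19 inhibitors, held 30.5 and 19.7 CPM in line 112 and 84.0 and 78.1 CPM in line 113, but 34.9 and 31.2 CPM in line 119 and 22.5 and 20.8 CPM in line 73. It was lower in the low knockout line and higher in the low wild-type line (-1.67 and 0.61; interaction -2.28, edgeR adjusted p = 3.09e-10), and its sides overlapped.

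Axon guidance genes changed in both directions. Of 548 regions, 20 rose and 18 fell in both genotypes (3.65% and 3.28%, against 2.28% and 5.34% of all regions), and 63 (11.5%, against 7.7%) went opposite ways. Separated were 14 higher (2.55%, against 1.12%) and 11 lower (2.01%, against 3.84%). Under the loess offset 12 were higher (2.19%, against 0.878% of all regions) and 3 lower (0.547%, near the 0.537% of all regions). Plxna4 gave 8 of the 14 rises under TMM and Slit3 another 3. Nrp2, a co-receptor for semaphorins and VEGF, held 10.2 and 10.8 CPM in line 112, 15 and 17.6 CPM in line 119, 44.4 and 33.6 CPM in line 113, and 58.6 and 59.4 CPM in line 73 at its start. The sides did not overlap, the log2 difference was -1.90 in the knockout and -1.86 in the wild-type lines, and it stayed separated under the loess offset. Sema5a, a semaphorin, held 10.9 to 20.8 CPM on the low side, 36.9 and 34.8 CPM in line 113 and 85.0 and 80.3 CPM in line 73.

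Genes of the extracellular matrix and of adhesion gave 6 rises and 11 falls in both genotypes over 361 regions. These were 1.66% and 3.05%, against 2.28% and 5.34% of all regions. Separated were 3 higher (0.831%) and 7 lower (1.94%), against 1.12% and 3.84% of all regions. Under the loess offset 1 was higher (0.277%) and 2 lower (0.554%), against 0.878% and 0.537% of all regions. Opposite changes made up 11.6%, against 7.7%. A region near Col3a1 had 8 counts over line 112, 78 over line 119 and 1 over the high libraries. Lamc1, a laminin chain of basement membranes, held 43.2 to 60.5 CPM on the low side and 72.2 to 85.9 CPM on the high side, at -0.66 and at 0.18 under the loess offset.

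The Hox clusters, which give cells their position along the body, differed by line. Of 98 regions, 3 rose and 75 fell in line 119 against line 73, with a median of -2.19. Of all 140329 regions, 38552 rose and 41307 fell there. In line 112 against line 113, 21 rose and 4 fell, with a median of 0.63, against 11566 and 21856 of all regions. In both genotypes 0 rose and 3 fell (3.06%, against 2.28% and 5.34% of all regions that rose and fell). Opposite changes numbered 18 (18.4%, against 7.7%), and 3 regions were separated, all lower (3.06%, against 3.84%). At Hoxb2 a region held 2.56 and 5.85 CPM in line 112, 0.646 and 1.86 CPM in line 119, 9.29 and 7.74 CPM in line 113, and 20.5 and 10.3 CPM in line 73. The sides did not overlap there, but a neighbouring Hoxb2 region missed the threshold in the knockout pair (-0.92, edgeR adjusted p = 0.0545).

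Start sites that rose and fell differed in base composition. Over 11573 annotated starts inside a tested region, leaving out chromosome 18, the median GC content of the 300 bases was 60.7% and the median CpG number 20. The 3496 starts in separated falls had medians of 63.7% and 25 CpGs, and the 53 in separated rises 58.0% and 8. Under the loess offset the medians were 61% and 22 CpGs for 180 falls and 60.8% and 14 for 96 rises. In 5 equal groups by GC content, the median difference in the knockout lines ran from -0.35 in the lowest to -0.62 in the highest under TMM. It lay between -0.05 and -0.01 in each group under the loess offset. In the wild-type lines it was -0.60 in the lowest and -0.77 in the highest group under TMM. Under the loess offset the wild-type order was reversed, at -0.36 in the lowest and -0.16 in the highest group. Median CPM over the same groups rose from 9.37 to 30.7, so composition and strength moved together. The AP-1 motif TGANTCA, read on both strands, was in 6.76% of all these starts. It was in 15.1% of the 53 in separated rises and in 3.15% of those in separated falls. The STAT motif TTCNNNGAA was in 6.81%, 17.0% and 5.72%, the M-box CATGTG in 8.84%, 13.2% and 5.95%, and the E-box CACGTG in 9.74%, 5.66% and 10.9%. Under the loess offset rises and falls had AP-1 in 19.8% and 4.44% and STAT in 11.5% and 5.56%. The lowest GC group had AP-1 in 14.6% and STAT in 11.8%, and the part of composition was not tested.

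The libraries were checked for other cell types that a lymph node or skin tumour could hold. Summed CPM over the strongest gene-end regions of 7 melanocyte markers was 74.6 to 160 in the low and 122 to 250 in the high libraries. On each side the wild-type line gave the lower end of the range and the knockout line the upper end. In line 73 most of the sum came from Mitf (38.2 and 40.0 CPM) and the Pmel region shared with Rab5b (75.8 and 73.3 CPM). Tyr, Tyrp1, Dct, Mlana and Sox10 held 0 to 3.61 CPM each there. In line 119 Pmel held 31.4 and 33.9 CPM and Mitf 17.2 and 20.4 CPM. Tyr, Tyrp1, Dct and Mlana held 0.646 to 4.91 CPM each in line 119. Of 8 lymphocyte markers, Ptprc, Cd3g, Cd8a and Cd79b had no tested region at a gene end, and the other 4 summed to 28.7 to 47.7 and 34.9 to 50.2 CPM. Of 6 myeloid markers, 3 had such a region (8 to 12.8 and 7.94 to 15.7 CPM), and of 6 endothelial markers only Kdr had. The 8 fibroblast markers summed to 49.6 to 58.8 CPM in the low and 47.9 to 147 CPM in the high libraries. The upper end of the high range was that of line 73 alone. Pdgfrb held 46.9 and 49.4 CPM in line 73 and 3.17 and 4.11 CPM in line 113, and Col1a2 held 33.3 and 31.1 against 1.36 and 1.45 CPM. Pdgfra went the other way, with 0.768 and 1.67 CPM in line 73 and 16.5 and 15.2 CPM in line 113. In 3 of 6 keratinocyte markers and 3 of 5 Schwann markers a region was present, with 14.2 to 15.4 against 6.34 to 20.7 CPM and 52.9 to 71.9 against 63.8 to 105 CPM. The part of these signals in the differences above was not tested.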

How the data were processed

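The study's 8 ATAC-seq libraries, 2 from each of 4 mouse melanoma lines, came with a table of counts for 148664 regions and a peak list per library. The deposited table holds raw counts, per the file headers, and the deposited peak lists give for each peak a score, a fold enrichment and -log10 of p and q from MACS2, per the file headers. Bowtie2 2.2.4, Picard 1.118, MACS2 2.1.1.20160309 and the builds mm10 and GRCm38 are named in the submitters' processing notes. Their settings, the handling of duplicate reads and any shift for the transposase are not given in the sources used here; unremoved duplicates would add to the spread between replicates, and a missing shift would move edges by a few bases.

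Groups were taken from the sample titles. Counts of replicate libraries were summed per line, and sides were tested with edgeR 4.0.16 (R 4.3.3; quasi-likelihood, genotype term, TMM, 1 residual degree of freedom). A second edgeR fit with a mean per line over the 8 libraries gave the line pairs and the interaction (4 residual degrees of freedom). Tests were two-sided with Benjamini-Hochberg adjustment over the 140329 regions that passed filterByExpr (minimum count 10), at an adjusted p of 0.05. Both fits were also run on simulated counts with known changes. The simulated lines did not differ in their trend with abundance, so that run does not test the part of signal to background. Totals were 2697546 to 7464336 counts per library; the share of counts in a region carries counting error only within a library. Alternatives were DESeq2 1.42.0, other scalings, filters and units, and each library left out; loess offsets combined with window offsets or with leaving out libraries were added after seeing the data.

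Regions were placed by RefSeq gene ends on GRCm38.p6 (within 1 kb as a gene end, and within 50 kb or inside a gene for the lists), and by a start-site table without chromosome 18. Genes were named by rule: 10 given genes; in each direction the 8 largest differences at gene ends among separated regions with at least 5 CPM on the higher side, the 4 smallest p values over 1 kb from gene ends, and the 6 genes with most separated regions; and for each of 9 gene lists the 2 smallest p values. Members and lists were chosen with earlier results of these data known. A named region of 1 list is not reported here.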

Additional observations from a re-analysis of the deposited data

Results flagged for a closer look

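Line groups of 2 libraries are too small for a test of single discordant libraries. At 23 of the 56 named regions (41.1%) the low minus high difference was unequal in the knockout and the wild-type lines by edgeR's interaction test (adjusted p under 0.05 over all 140329 regions; knockout minus wild type, log2 scale), a share near the 39.8% of all regions. Among melanocyte and cell cycle genes this was so at Dct (-4.20), Sox10 (-2.82), Cdkn2a (-2.28) and Tyr (-1.51), where the low line stood lower against its high line in the knockouts than in the wild types. Mreg stood at 1.01 and Cd9 at 1.16.

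Among gene ends higher in the low lines, the difference was greater in the wild-type lines at Dok5 (-3.35), Pcdh17 (-2.22), Klrb1a (-2.03) and Gldn (-1.85). Among those lower in the low lines, the fall was greater in the wild-type lines at Rftn1 (3.91), Cbln2 (3.36), Gata2 (3.06), Gstm2 (2.82), Cyb5a (2.82) and Jph1 (0.86). The same held for Hoxb2 (2.60 and 2.89), Rpl3 (1.34), Sema5a (0.70) and Ppara (0.66). Lifr (-1.48) and Jun (-0.60) fell more in the knockout lines.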

How the results depend on the processing

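The number of regions called with lines as units was 0 in the main analysis, with a smallest adjusted p of 0.395; it was 0 as well with DESeq2, without the genotype term (6124 at an unadjusted p of 0.05), and with each library left out. It was 14405 with libraries as units, which counts replicates of a line as independent, and 8 with the loess offset (0 to 9 when each library was left out under that offset). Replicate numbers did not pair the samples, with correlations of replicate differences between lines of -0.0367 to 0.00386; the replicate block, also with libraries as units, gave 7215.

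Regions changed the same way in both genotypes (10698) numbered 4704 with TMM from regions without a peak, 4392 with the loess offset, 3514 with loess and window offsets, 2249 with a mean count of at least 50, which tests 24137 regions, and 5123 to 11466 with a library left out (2166 to 4491 under the loess offset). Opposite changes (10799) numbered 2671 with a mean count of at least 50 and 6238 to 12021 with a library left out (6012 to 9897 under the loess offset). Separated regions (6968) numbered 1241, 1985, 1498 and 1063 under the same first 4 settings and 3033 to 8189 with a library left out (960 to 2128 under the loess offset): 3338 without line 113 replicate 1, 3033 and 3181 without line 119 replicate 1 and 2, and 4563 without line 73 replicate 1. The interaction passed at 12842 regions with a mean count of at least 50. The correlation of the within-genotype differences was -0.152 to -0.067 with a library left out. The share of counts in the strongest 5% of regions differed by -7.01 percentage points.

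Direction reversed at 16 named regions. Dct (0.41) was at -0.0572 with libraries as units and -1.25 without the genotype term. With the loess offset Cdkn2a was at 0.12, Ptch1 0.36, Prdm10 0.0937, Jun 0.22, Socs1 0.51, Hmga2 0.0066, Lamc1 0.18, Rps19 0.30, Bhlhe40 0.61 and Cic 0.85. With loess and window offsets Pmel was at 0.24, Stat3 0.11, Cdkn2a 0.0895, Ptch1 0.57, Prdm10 0.0636, Ppara 0.0916, Socs1 0.42, Cdk4 0.23, Hmga2 0.41, Lamc1 0.24, Rps19 0.36, Bhlhe40 0.38 and Cic 0.92. With TMM from the strongest regions Cdkn2a was at 0.11, Socs1 0.14, Rps19 0.016, Bhlhe40 0.0721 and Cic 0.45. With a mean count of at least 50 Socs1 was at 0.0301 and Cic at 0.34, with 10 Mb windows Plekha5 at -0.28 and Cic at 0.0741, and with total counts Cic at 0.0896. The causes were not tested. Depth limits weak regions most: the weakest 10% of regions lie at 0.652 to 1.64 CPM, a few counts per library.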
